A study of Mus musculus with 12 samples.

Results

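The 7 genes described here encode the working parts of MHC class II antigen presentation and were chosen by their symbols, H2-Aa, H2-Ab1, H2-Eb1, H2-DMa, H2-DMb1, Cd74 and Ciita, out of 20718 genes in the table. All 7 passed the filter on low counts, as did 16297 genes in all. They were followed in RNA from mouse testes of the injected generation (F0), in 4 groups of 3 libraries, 12 libraries in all. F0_5251KD testes received lentivirus with 3 short hairpin RNAs against lncRNA5251, a long non-coding RNA, in the LV3 vector, and F0_3NC testes received the negative control of that vector. F0_5251OV testes received lncRNA5251 for overexpression in the LV5 vector, and F0_5NC testes received LV5 without it. The strain is written IRC in the labels and ICR, an outbred stock, in the study's methods. The animals were injected at 4 weeks of age, were raised to 9 weeks and were then mated before the testes were taken. Every group had thus received virus into the testis, and testes without injection were not analysed here. Whether each library stands for its own animal is not stated in the labels, and the p-values below cover only the spread among libraries. The vectors act in whole testis, and the tissue was sequenced in bulk, so fewer cells of a type and less RNA per cell cannot be told apart.

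MHC class II molecules are heterodimers of an alpha and a beta chain that carry peptides from engulfed proteins to the surface of macrophages, dendritic cells and B cells, where CD4+ T cells read them. In the endoplasmic reticulum the heterodimer is held by the invariant chain, the product of Cd74, which fills the peptide groove and steers the complex to the endosome. There the H2-DM heterodimer helps to exchange the remnant of the invariant chain for a peptide. Transcription of these genes depends on the coactivator CIITA, the product of Ciita, which is induced by interferon gamma and is recruited by the RFX and NF-Y factors bound to the X and Y boxes of the promoters. In the testis, macrophages of the interstitium and of the tubule wall are the best known class II positive cells, in an organ otherwise noted for restrained immune responses.

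The promoters of class II genes share short elements, and for 3 members the last 100 bases before the gene start are printed here because CIITA acts through such elements. Promoter windows of 250 bases before and 50 bases after the start came from RefSeq (GRCm38.p6) and were matched by symbol for 4 of the 7 members, with 5 windows in all. The 2 windows of H2-DMa start inside its annotated span, the first of them mostly within Brd2, and are not shown. Capitals mark the Y box (GATTGG, or CCAATC on the other strand, and CTGATTGG where the longer form is present), an X box core (AACNGATG) and a cyclic AMP response element (TGACGTCA). Both strands were searched, and the longer Y box form contains the shorter. The windows lie at chr17:34287824-34287923 on the minus strand for H2-Aa, chr17:34305767-34305866 on the plus strand for H2-Eb1 and chr17:34153091-34153190 on the plus strand for H2-DMb1.
H2-Aa: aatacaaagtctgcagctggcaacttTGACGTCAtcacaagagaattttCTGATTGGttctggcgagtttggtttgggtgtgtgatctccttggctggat
H2-Eb1: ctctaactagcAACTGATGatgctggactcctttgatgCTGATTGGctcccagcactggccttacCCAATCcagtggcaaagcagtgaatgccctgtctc
H2-DMb1: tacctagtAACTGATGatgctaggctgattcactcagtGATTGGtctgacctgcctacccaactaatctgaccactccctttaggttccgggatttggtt

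H2-Aa, H2-Eb1 and H2-DMb1 each had a Y box on the gene's strand within the printed bases, starting at -49, -60 and -62 from the gene start. H2-Eb1 and H2-DMb1 had the X box core at -89 and -92, and H2-Aa had the cyclic AMP response element at -74. Among 32851 promoter windows of the same length, 16.1% held the short Y box, 4.1% the longer form, 2.32% the X box core and 1.79% the cyclic AMP response element. The matches describe letters and not bound sites. H2-Ab1, Cd74 and Ciita had no entry among these windows.

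Levels differed widely among the members. On the RPKM scale, which divides by transcript length and can be set side by side between genes, the mean over the 12 libraries was 18.4 for Cd74, 15.4 for H2-Ab1, 11.6 for H2-Aa, 5.27 for H2-DMa, 2.65 for H2-Eb1, 1.43 for H2-DMb1 and 0.105 for Ciita. The ranges of neighbours in the upper part of this order overlapped. Cd74 ran from 10.1 to 46.6, H2-Ab1 from 7.52 to 26.3 and H2-Aa from 5.27 to 31.1. Within a library, Cd74 was always above H2-Aa, since the ratio of H2-Aa to Cd74 was 0.480 to 0.720. H2-Ab1 was above Cd74 in some libraries and below it in others (ratio 0.551 to 1.65), and likewise for H2-Aa (ratio 0.826 to 2.81). The H2-DMa range of 4.52 to 6.65 overlapped that of H2-Aa and H2-Eb1 at its edges, and H2-Eb1 (1.34 to 5.28) overlapped H2-DMb1 (0.72 to 2.35). Within each library H2-Aa was above H2-DMa, by least in F0_5251OV replicate 2 (5.27 against 5.02). Ciita, at 0.01 to 0.39, lay below every other member in each of the 12 libraries.

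Library totals were nearly even, from 15431383 to 16355720 estimated counts, and CPM values are counts scaled to that total times the library's TMM factor, edgeR's scaling for composition, which was 0.970 to 1.078. No pair of replicates agreed within sampling noise (chi-square of 3.86 to 21.3 per gene). Class II expression stood out in 3 control libraries, F0_3NC replicate 2 and F0_5NC replicates 1 and 2, where the summed level of the members was 115, 86.5 and 80.2 RPKM. The other 9 libraries had sums of 32.3 to 56.2 RPKM, and these included all 3 of F0_5251KD and all 3 of F0_5251OV. Values that move by much without 1 of these libraries are given below with and without it.

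**Figure D1:**
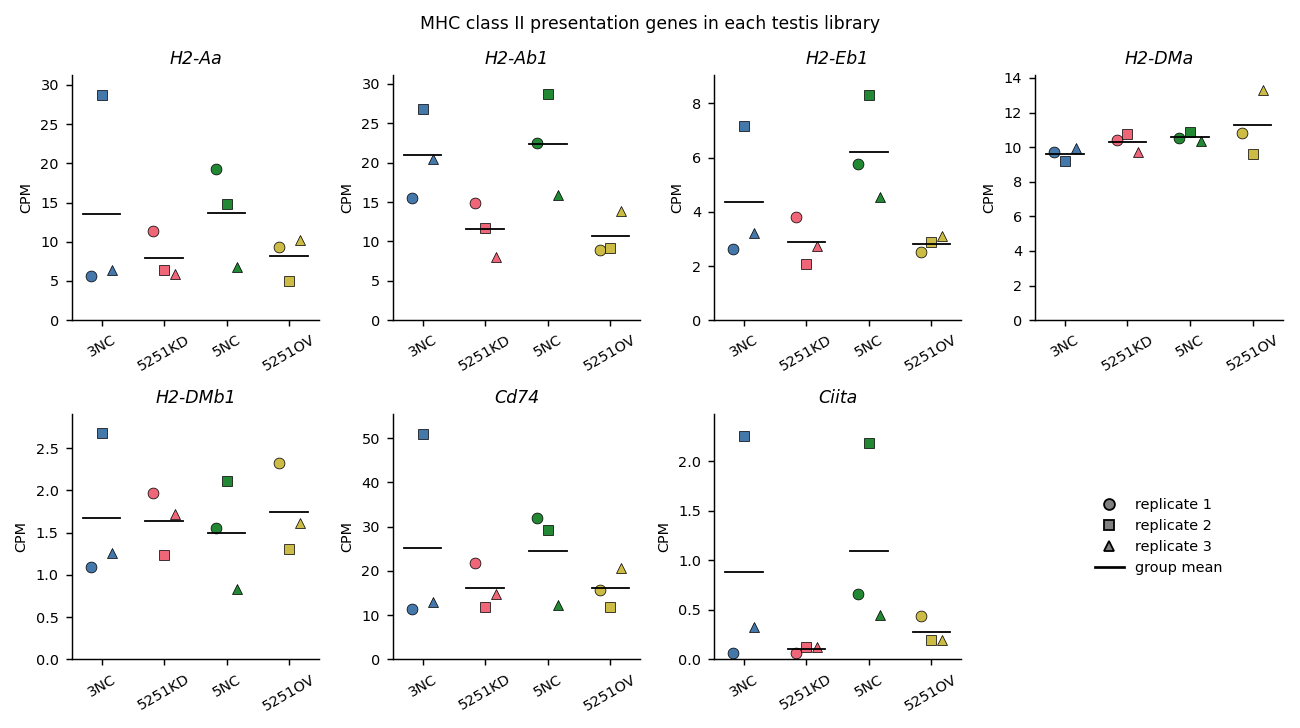
Level of each of the 7 members in CPM (linear axes that start at 0) in the 12 libraries, by group, with a marker for each replicate number and a bar at the group mean. F0_3NC replicate 2 is the highest library for H2-Aa, H2-DMb1, Cd74 and Ciita, and for H2-Ab1 all F0_5251KD libraries lie below all F0_3NC libraries and all F0_5251OV libraries below all F0_5NC libraries.

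The classical heterodimer I-A is made of the alpha chain from H2-Aa and the beta chain from H2-Ab1, which bind and present the peptide. H2-Ab1 was at 15.5, 26.8 and 20.4 CPM in F0_3NC replicates 1 to 3 and at 14.9, 11.7 and 7.98 CPM in F0_5251KD. In F0_5NC it was at 22.5, 28.7 and 15.9 CPM, and in F0_5251OV at 8.96, 9.14 and 13.9 CPM. Both treated groups lay wholly below their own control, although the gap was narrow between F0_5251KD replicate 1 and F0_3NC replicate 1. The group means were 20.9 ± 5.66 CPM (SD, n = 3) in F0_3NC, 11.5 ± 3.48 in F0_5251KD, 22.3 ± 6.41 in F0_5NC and 10.7 ± 2.80 in F0_5251OV.

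H2-Aa was at 5.61, 28.6 and 6.41 CPM in F0_3NC and at 11.4, 6.42 and 5.88 CPM in F0_5251KD. It was at 19.3, 14.9 and 6.78 CPM in F0_5NC and at 9.34, 5.03 and 10.2 CPM in F0_5251OV. The groups overlapped in both pairs, and the F0_3NC mean of 13.6 ± 13.1 CPM (SD, n = 3) was set by replicate 2. The treated groups were thus separated from their controls for the beta chain and overlapped them for the alpha chain. The log2 fold changes of H2-Ab1 and H2-Aa were -0.86 and -0.79 in F0_5251KD vs F0_3NC. In F0_5251OV vs F0_5NC they were -1.07 and -0.74. Whether the changes of these chains differ was not tested.

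H2-Eb1, the beta chain of the I-E heterodimer, was at 2.64, 7.18 and 3.24 CPM in F0_3NC and at 3.81, 2.07 and 2.75 CPM in F0_5251KD. In F0_5NC it was at 5.75, 8.32 and 4.54 CPM, and in F0_5251OV at 2.51, 2.87 and 3.10 CPM. F0_5251OV lay wholly below F0_5NC and had the smallest spread of any group (2.83 ± 0.300 CPM, SD, n = 3), while F0_5251KD overlapped F0_3NC. The alpha chain of I-E was represented by the pseudogene H2-Ea-ps, which is described with the class II region below.

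Cd74 was at 11.5, 50.9 and 13.0 CPM in F0_3NC and at 21.7, 11.9 and 14.7 CPM in F0_5251KD. It was at 31.9, 29.3 and 12.4 CPM in F0_5NC and at 15.7, 11.9 and 20.7 CPM in F0_5251OV. The high libraries of both control groups lay above every treated library and the remaining control libraries lay close to the lower treated ones, so the groups overlapped in both pairs. The group means were 25.1 ± 22.3 CPM (SD, n = 3) in F0_3NC, 16.1 ± 5.05 in F0_5251KD, 24.6 ± 10.6 in F0_5NC and 16.1 ± 4.41 in F0_5251OV.

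H2-DMa and H2-DMb1 encode the alpha and the beta chain of the peptide exchange factor. H2-DMa was at 9.73, 9.18 and 9.98 CPM in F0_3NC, 10.4, 10.8 and 9.71 CPM in F0_5251KD, 10.5, 10.9 and 10.4 CPM in F0_5NC and 10.8, 9.59 and 13.3 CPM in F0_5251OV. It was the most even member, with a highest library 1.45 times the lowest. The H2-DMa gene span overlaps that of Brd2, which encodes a widely expressed bromodomain protein, by 3122 bases on the opposite strand, and Brd2 had 5461 to 6066 counts per library. The reads carry no strand, so H2-DMa and Brd2 reads cannot be told apart in the overlap.

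H2-DMb1 was low, with 13 to 43.7 estimated counts per library. Its level was 1.10, 2.68 and 1.26 CPM in F0_3NC, 1.97, 1.23 and 1.72 CPM in F0_5251KD, 1.56, 2.11 and 0.832 CPM in F0_5NC and 2.32, 1.31 and 1.62 CPM in F0_5251OV. The groups overlapped in both pairs. Some of its counts were not whole, as arises when reads are shared out with a near-identical gene such as H2-DMb2, and its values are uncertain for that reason.

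Ciita, the master coactivator, was close to the limit of detection. F0_3NC libraries had 1, 37 and 5 counts of it, and F0_5251KD libraries 1, 2 and 2. It had 11, 33 and 7 counts in F0_5NC and 7, 3 and 3 counts in F0_5251OV. The highest libraries were F0_3NC replicate 2 and F0_5NC replicates 2 and 1, which were also the 3 libraries with the highest summed class II level. Ciita passed the filter on low counts through these 3 control libraries only. Its comparisons of treated with control libraries therefore favoured lower treated values in advance. F0_5251OV replicate 1 had the same count as F0_5NC replicate 3 and lay slightly below it on the CPM scale (0.439 against 0.448). The Ciita span overlaps Dexi by 858 bases and the long non-coding RNA LOC115488669 by 15932 bases, so reads there could belong to either gene.

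No member passed the test in F0_5251KD vs F0_3NC (edgeR, adjusted p of 0.897 to 0.988), where 0.0245% of all genes tested did. DESeq2 and limma called none of the 7 either. At an unadjusted p under 0.05, 2 members were lower, H2-Ab1 and Ciita, against 2.40% of all genes lower at that level. The log2 fold change was below 0 for 6 of 7 members, with H2-DMa the exception, against 50.9% of all genes. Both counts include Ciita, which passed the filter on low counts through control libraries only. The median over the members was -0.64, beside 0.00 over all genes (log2).

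H2-Ab1 had a log2 fold change of -0.86 in F0_5251KD (SE 0.271, 95% interval -1.44 to -0.28, edgeR adjusted p 0.897), which is 0.551 times the F0_3NC level. It was the only member whose F0_5251KD libraries all lay below all F0_3NC libraries, as did 6.27% of all genes. H2-Aa, Cd74 and H2-Eb1 had log2 fold changes of -0.79 (SE 0.557), -0.64 (SE 0.498) and -0.60 (SE 0.357). Ciita had the lowest estimate at -2.98 (SE 1.14), from 5 counts in F0_5251KD in all and 43 in F0_3NC. H2-DMa at 0.10 (SE 0.126) and H2-DMb1 at -0.04 (SE 0.397) were close to 0.

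F0_3NC replicate 2 decided several of these values. Without it the median over the members was 0.06, and the log2 fold changes of H2-DMb1, Cd74 and H2-Aa were 0.48, 0.40 and 0.39, with the sign changed. H2-Eb1 was then at -0.0284, close to 0. Ciita was then at -0.83. H2-Ab1 was at -0.64 without that library and kept its sign in all other alternatives tried.

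In F0_5251OV vs F0_5NC no member passed edgeR's test (adjusted p of 0.49 to 0.881), and no gene of the table did (0% called). DESeq2 called 1 member, H2-Ab1, at an adjusted p of 0.049, when it called 0.0928% of the genes it tested as lower. At an unadjusted p under 0.05 with edgeR, 2 members were lower, H2-Ab1 and H2-Eb1, against 4.80% of all genes. The log2 fold change was below 0 for 5 of 7 members, against 50.5% of all genes, and the median was -0.74, beside 0.00 over all genes. Ciita, which passed the filter on low counts through control libraries only, is among these 5. Without F0_5NC replicate 1 the median was -0.40, and without F0_5251OV replicate 2 it was -0.48.

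H2-Ab1 was at a log2 fold change of -1.07 in F0_5251OV (SE 0.273, 95% interval -1.65 to -0.48, edgeR adjusted p 0.49), or 0.478 times the F0_5NC level. H2-Eb1 was at -1.13 (SE 0.351, 95% interval -1.89 to -0.37, edgeR adjusted p 0.537), or 0.456 times that level. The groups did not overlap, with F0_5251OV lower, for H2-Ab1 and H2-Eb1, and 6.57% of all genes showed the same separation. Ciita was separated in the same direction, but it passed the filter on low counts through control libraries only, which favoured that outcome in advance. Leaving out any 1 library kept H2-Ab1 between -1.30 and -0.85 and H2-Eb1 between -1.31 and -0.87.

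The remaining estimates in F0_5251OV vs F0_5NC were smaller or less certain. H2-Aa was at -0.74 (SE 0.555) and Cd74 at -0.61 (SE 0.499), both with intervals that included 0. Without F0_5NC replicate 1 these were -0.40 and -0.37, and over each library left out in turn H2-Aa ran from -1.05 to -0.40 and Cd74 from -0.92 to -0.37. Ciita was at -1.94 (SE 0.938), from 13 counts against 51, and was at -0.98 without F0_5NC replicate 2. H2-DMb1 changed sign without F0_5NC replicate 3 (-0.0585) or F0_5251OV replicate 1 (-0.0374), and H2-DMa without F0_5251OV replicate 3 (-0.0534). H2-DMa at 0.09 (SE 0.125) and H2-DMb1 at 0.22 (SE 0.399) were the 2 members above 0.

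**Figure D2:**
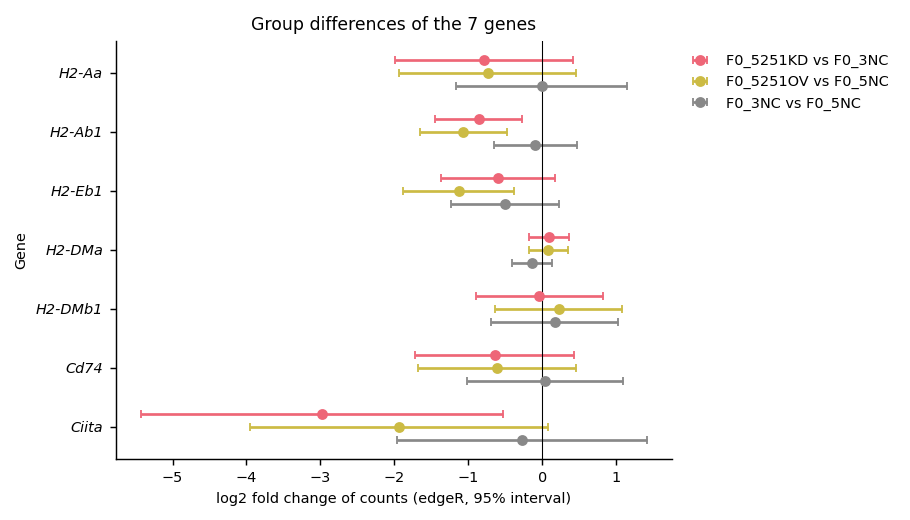
Log2 fold change of each member with its 95% interval (edgeR) in the knockdown, the overexpression and the comparison of the 2 vector controls; the vertical line at 0 marks no difference. The intervals of H2-Ab1 lie below 0 in both treated comparisons and that of H2-Eb1 only in F0_5251OV vs F0_5NC. That of Ciita lies below 0 only in F0_5251KD vs F0_3NC. Ciita passed the filter on low counts through control libraries only, which favoured lower treated values in advance. The control comparison includes 0 for all 7 members.

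The 2 vector controls gave the background for these differences. In F0_3NC vs F0_5NC no member passed edgeR's test (adjusted p of 0.547 to 0.997), DESeq2 called none and none had an unadjusted p under 0.05, where 0.331% of all genes tested were called. The log2 fold changes ran from -0.50 for H2-Eb1 to 0.17 for H2-DMb1, with a median of -0.09. These values depended on single libraries. Leaving out each library in turn, the median ran from -1.003, without F0_3NC replicate 2, to 0.27. H2-Aa ran from -1.18 to 0.37, Cd74 from -1.003 to 0.39 and Ciita from -2.42 to 0.68. With all libraries, the estimates divided by sign as follows. They were below 0 for 5 of 7 members, against 49.9% of all genes. H2-DMa did not overlap between the controls, with a log2 fold change of -0.14 (SE 0.126), and 7.41% of all genes were non-overlapping and lower in this comparison.

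The knockdown and the overexpression were compared with each other by the difference of their effects, and 0% of the genes tested passed, members included. The smallest adjusted p of a member was 0.665 (edgeR), none had an unadjusted p under 0.05 and DESeq2 called none. For H2-Ab1 the knockdown effect minus the overexpression effect was 0.21 (SE 0.383, 95% interval -0.62 to 1.03). For H2-Eb1 it was 0.53 (SE 0.501), for Cd74 -0.03 (SE 0.703) and for H2-Aa -0.05 (SE 0.785). The estimates of the classical chains and of Cd74 were negative in both treatments, and these intervals leave room for sizeable differences in either direction.

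The members varied between libraries of 1 group far more than most genes did. The within-group SD of log2 CPM was 0.841 for H2-Aa, larger than in 99.2% of the genes whose mean log2 CPM was within 0.5 of its own, and 0.761 for Cd74, larger than in 99.5%. For H2-Ab1 it was 0.407 (97.6%), for H2-Eb1 0.483 (93.3%), for H2-DMb1 0.515 (87.9%) and for Ciita 1.09 (81.6%). H2-DMa was the exception, with 0.129 and only 15.4% of its like genes below it. The low precision of the fold changes above goes with this spread.

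Cd74 and H2-Aa varied together almost in proportion. Over the 12 libraries Pearson's r of log2 CPM was 0.979 (permutation p = 2e-05, adjusted 0.00012 over 6 relations) and Spearman's rho was 0.930 (permutation p = 4e-05, adjusted 0.00024). Without F0_3NC replicate 2 and F0_5NC replicate 1, the libraries farthest from the median of Cd74, r was 0.946, and within groups it was 0.978. The RPKM ratio of H2-Aa to Cd74 stayed between 0.480 and 0.720 while the levels themselves ranged 5.70-fold for H2-Aa and 4.44-fold for Cd74 in CPM. The labels name no sequencing batch within which these relations could be recomputed.

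**Figure D3:**
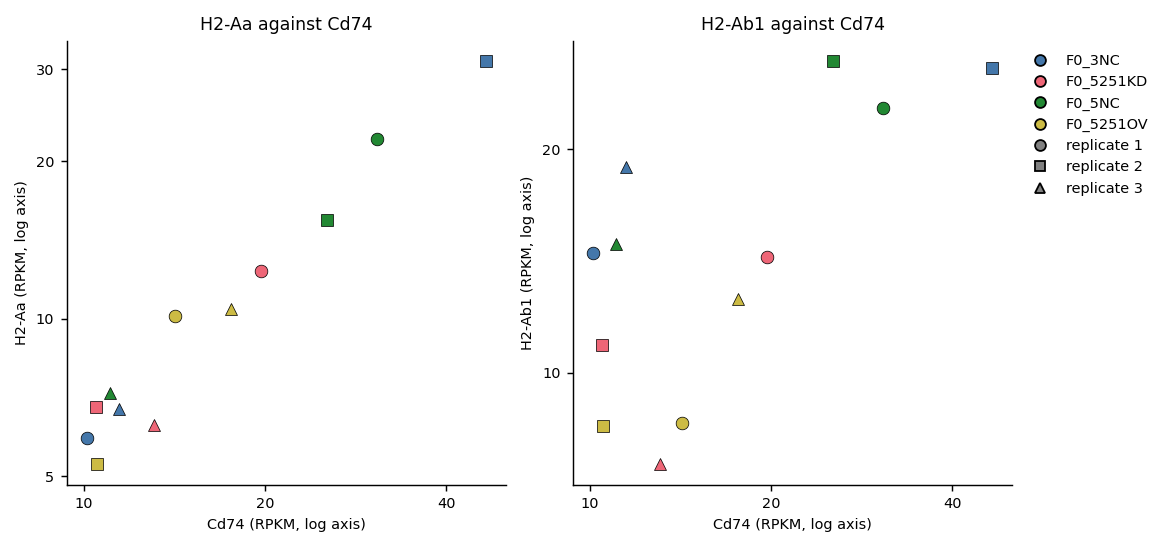
Level of H2-Aa and of H2-Ab1 (RPKM, vertical log axes) against Cd74 (RPKM, horizontal log axes) in the 12 libraries, coloured by group with a marker for each replicate number. H2-Aa follows Cd74 closely and H2-Ab1 less so (Pearson's r of log2 CPM 0.979 and 0.670).

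The other members followed Cd74 less closely. H2-Eb1 had an r of 0.812 (permutation p = 0.00216, adjusted 0.00648) and a rho of 0.699 (permutation p = 0.0141, adjusted 0.0282), and r was 0.700 without the same 2 libraries. H2-DMb1 had an r of 0.738 (permutation p = 0.00644, adjusted 0.0106) and a rho of 0.769 (permutation p = 0.00532, adjusted 0.016), and r was 0.730 without them.

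H2-Ab1 had an r of 0.670 with Cd74 (permutation p = 0.0174, adjusted 0.0208) but a rho of 0.497 (permutation p = 0.105, adjusted 0.126), and Ciita an r of 0.741 (permutation p = 0.00704, adjusted 0.0106) but a rho of 0.538 (permutation p = 0.0751, adjusted 0.113). Without the 2 farthest libraries their r was 0.473 and 0.530, so both relations rest on those libraries. H2-DMa had an r of 0.02 (permutation p = 0.957, adjusted 0.957) and a rho of 0.238 (permutation p = 0.456, adjusted 0.456), and r was 0.534 without those libraries. The within-group r was 0.746 for H2-Ab1, 0.895 for H2-Eb1, 0.878 for H2-DMb1, 0.747 for Ciita and 0.105 for H2-DMa.

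H2-Ab1 was therefore the classical chain whose balance with its partners shifted most between libraries. Its RPKM ratio to H2-Aa ran from 0.826 in F0_3NC replicate 2 to 2.81 in F0_3NC replicate 3, and its ratio to Cd74 from 0.551 to 1.65. In F0_5251KD the ratio of H2-Ab1 to H2-Aa was 1.16, 1.61 and 1.20, and in F0_5251OV it was 0.846, 1.61 and 1.20. In F0_3NC it was 2.45, 0.826 and 2.81 and in F0_5NC 1.03, 1.71 and 2.07. The ratio overlapped between each treatment and its control, and the lowest ratio in the controls came from the library with the most Cd74.

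Among the members, the closest partner of H2-Aa was Cd74 and the closest partner of Cd74 was H2-Aa. H2-Ab1 was most like H2-Eb1 (r 0.834), H2-Eb1 and Ciita were most like each other (r 0.850), and H2-DMb1 was most like Cd74. H2-DMa was the least similar partner of each of the other 6, with r from -0.11 for H2-Eb1 to 0.06 for H2-Aa.

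Genes whose pattern was most like the mean of the 7 members, each on a standardised log2 CPM scale over the 12 libraries, were Igtp, Gbp7, Gbp2, Rtp4, Gbp2b, Iigp1, Irgm2, Ifi47 and Irf1. These were 9 of the first 10 of 15161 genes ranked, with r from 0.967 for Igtp to 0.935 for Irf1, and within-group r from 0.936 to 0.961. Igtp, Iigp1, Irgm2, Ifi47 and the Gbp genes encode interferon-inducible GTPases, and IRF1 is a transcription factor induced by interferons. The ranking is a description over 12 libraries that share their depth and tissue composition.

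Igtp had 28, 334 and 38 estimated counts in F0_3NC, with 43, 15 and 24 in F0_5251KD. Its counts were 120, 446 and 29 in F0_5NC, with 59, 19 and 72 in F0_5251OV. Irf1 ranged from 69 to 104 counts in F0_5251KD and from 48 to 93 in F0_5251OV. Its control libraries had 54, 251 and 101 counts in F0_3NC, with 148, 328 and 65 in F0_5NC. In both genes the high libraries were F0_3NC replicate 2 and F0_5NC replicates 1 and 2, as for the class II members. None of these 9 genes passed edgeR's test in any of the comparisons. For Igtp the knockdown gave a log2 fold change of -2.24 (SE 1.03) and the overexpression -1.996 (SE 0.947), each with overlapping groups.

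**Figure D4:**
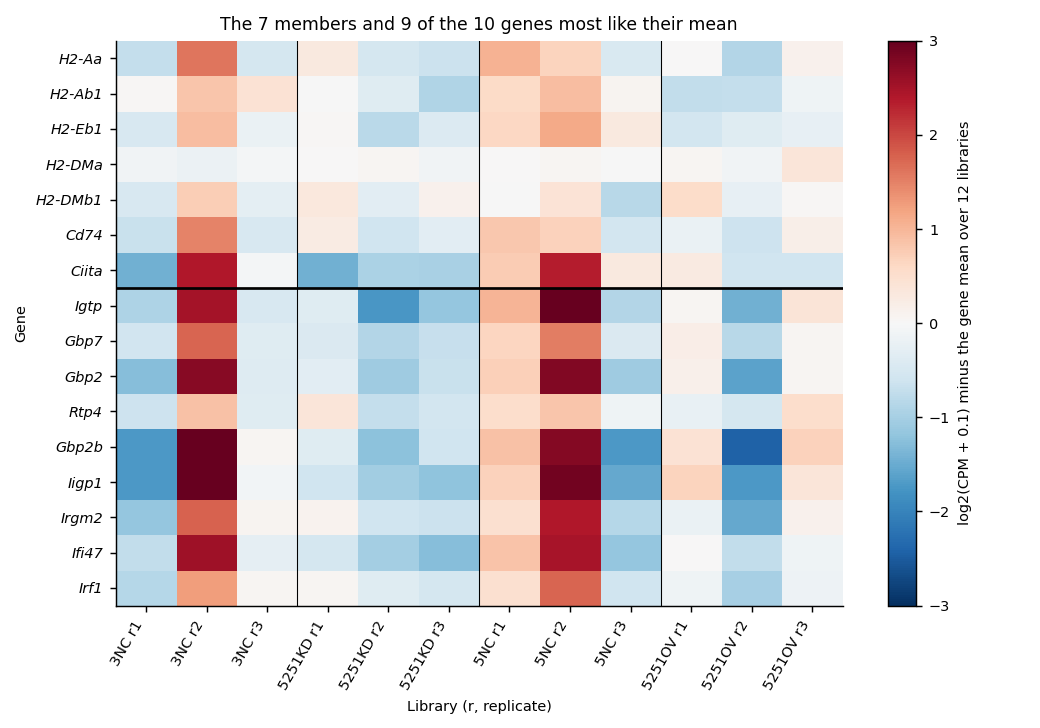
Level of the 7 members and of 9 of the 10 genes with the most similar pattern, as log2(CPM + 0.1) minus the gene's mean over the 12 libraries (colour, which stops at -3 and 3), with a column for each library by group (r, replicate). F0_3NC replicate 2 and F0_5NC replicates 1 and 2 are high for most genes, and H2-DMa does not share the pattern.

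The factors upstream of the class II promoters were described from a list of 7 genes for the RFX, NF-Y and CREB proteins, all tested. None passed edgeR's test in any comparison, and their median log2 fold change was -0.01 in F0_5251KD vs F0_3NC and 0.02 in F0_5251OV vs F0_5NC. Their values in F0_5251OV vs F0_5NC ran from -0.08 for Nfyc, a subunit of NF-Y, to 0.17 for Rfxank, a subunit of RFX. Their summed level was 37.2 to 42.1 RPKM over the 12 libraries, in contrast to the range of Ciita.

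Of 9 genes on the route from interferon gamma to Ciita, 8 were tested and none was called. Ifng, the cytokine itself, had 0 or 1 count in every library. In F0_5251OV vs F0_5NC all 8 were below 0, with a median of -0.16, from -1.24 for Irf1 (SE 0.552, edgeR adjusted p 0.561) to -0.03 for Ifngr1, a chain of the receptor. In F0_5251KD vs F0_3NC 5 of 8 were below 0, with a median of -0.03. The summed level of the list was 65.5 RPKM in F0_3NC replicate 2 and 63.4 and 66.5 in F0_5NC replicates 1 and 2, and 42.2 to 51.3 in the other 9 libraries.

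Endosomal processing was represented by 9 genes, all tested, of which none was called. The median log2 fold change was -0.02 in F0_5251KD vs F0_3NC and -0.22 in F0_5251OV vs F0_5NC. In the second comparison the values ran from -0.39 for Ctss, the protease that trims the invariant chain, to 0.43 for March1, a ligase that removes class II from the cell surface. Co-stimulation was represented by 7 genes, of which 5 were tested and all 5 were below 0 in both treated comparisons. Of these, Icosl, the ligand of ICOS on T cells, was higher in F0_3NC than in F0_5NC (log2 fold change 1.10, SE 0.212, edgeR adjusted p 0.0493), with 113, 137 and 82 counts against 71, 47 and 38. It was the only gene of the pathway lists that passed the test in any comparison.

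Class I presentation, the parallel route for peptides made inside the cell, was represented by 15 genes, all tested and none called. In F0_5251KD vs F0_3NC 14 of 15 were below 0, with a median of -0.12, and in F0_5251OV vs F0_5NC 8 of 15, with a median of -0.18. The values in F0_5251OV vs F0_5NC ran from -0.48 for Tapbp (SE 0.112, edgeR adjusted p 0.404), the chaperone tapasin, to 0.82 for Nlrc5 (SE 0.479), the class I counterpart of Ciita.

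The class II members on chromosome 17 lie in a cluster. Between the start of H2-DMa (chr17:34119693-34139101) and the end of H2-Ea-ps (chr17:34341952-34344645) in GRCm38.p6, a stretch of 225 kb, the table held 13 genes, of which 10 were tested. H2-DMb1 lies at chr17:34153191-34160229, H2-Ab1 at chr17:34263227-34269418, H2-Aa at chr17:34282744-34287823 and H2-Eb1 at chr17:34305867-34316674. Cd74 lies on chromosome 18, and Ciita at chr16:10480014-10531064. Between the DM genes and the classical chains are Psmb9, Tap1, Psmb8 and Tap2, which serve class I presentation, and H2-Ob. This set of neighbours was added after values had been seen.

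H2-Ob encodes a chain of H2-DO, the heterodimer that restrains H2-DM, and it went the other way from its neighbour H2-Ab1 in F0_5251OV. It had 28, 21 and 32 counts in F0_5251OV and 4, 5 and 1 in F0_5NC, with no overlap. In F0_5251KD it had 20, 3 and 4 counts, against 3, 1 and 6 in F0_3NC. Its log2 fold change in F0_5251OV vs F0_5NC was 2.99 (SE 0.671), with an edgeR adjusted p of 0.399, and 7.33% of all genes were non-overlapping and higher in this comparison. The counts are small, and F0_5251KD replicate 1, at 20, came near the lowest F0_5251OV library. H2-Ob passed the filter on low counts only through that library and those of F0_5251OV. Its higher values in F0_5251OV were therefore favoured in advance.

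H2-Ea-ps did not pass the filter on low counts, with 4, 5 and 12 counts in F0_5251OV, 0, 1 and 0 in F0_5NC, 6, 3 and 5 in F0_5251KD and 0, 1 and 5 in F0_3NC. H2-Oa and H2-Eb2 had 0 to 2 counts in every library. Class II genes are highly polymorphic between mice, the stock is outbred, and reads were aligned to 1 set of reference genes. What part allele differences between animals had in the values of H2-Ab1, H2-Ob and their neighbours was not tested.

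**Figure D5:**
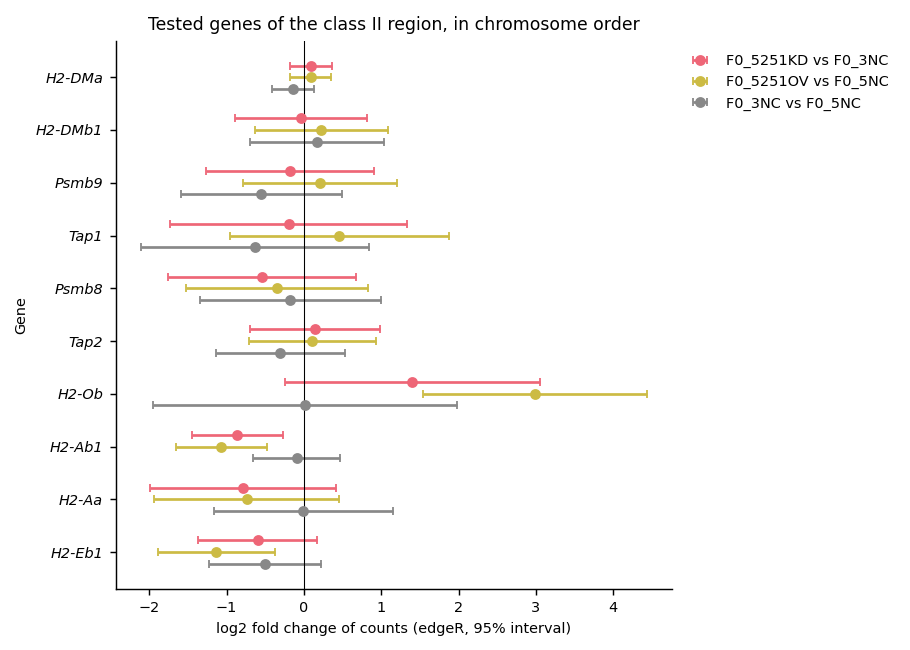
Log2 fold change of the 10 tested genes of the class II region on chromosome 17, in chromosomal order, with 95% intervals (edgeR), for the knockdown, the overexpression and the comparison of the 2 vector controls. In F0_5251OV vs F0_5NC H2-Ob is at 2.99 and the adjacent H2-Ab1, H2-Aa and H2-Eb1 are at -1.07, -0.74 and -1.13. H2-Ob passed the filter on low counts only through F0_5251KD replicate 1 and the F0_5251OV libraries, which favoured its higher value in advance.

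Markers of the cells that could carry class II were read beside these values. Of 13 macrophage markers, all tested and none called, 12 were below 0 in F0_5251OV vs F0_5NC, with a median log2 fold change of -0.38 and values from -0.65 for Cd163 (SE 0.423), a scavenger receptor, to 0.04 for Mrc1, the mannose receptor. Their summed level was 68.8 to 73.8 RPKM in F0_5251OV and 73.8 to 125 in F0_5NC. In F0_5251KD vs F0_3NC only 4 of 13 were below 0 and the median was 0.08, with sums of 61.2 to 104 RPKM in F0_5251KD and 60.4 to 85.8 in F0_3NC. The 3 libraries with the highest class II level, F0_3NC replicate 2 and F0_5NC replicates 1 and 2, had macrophage sums of 85.8, 125 and 80.5 RPKM, of which 125 was the highest of the 12 libraries. F0_5251KD replicate 3, which had the lowest H2-Ab1 level, had 104. No macrophage marker was at 0 in all libraries, and the part of macrophage content in the class II values was not tested.

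Of 10 dendritic cell markers 5 were tested and none was called. Their summed level was 6.25 to 8.68 RPKM over the 12 libraries, and their values in F0_5251OV vs F0_5NC ran from -0.92 for Itgax, the integrin CD11c, to 0.59 for Ccr7, a homing receptor. The B cell list (3 of 7 tested) had Ms4a1 lowest at -0.72 and Pax5 highest at 0.19, and its defining gene Cd79a had 0 to 3 counts in every library. The T cell list (4 of 7 tested) had Cd4 lowest at -0.44 and Cd2 highest at 0.25, and Cd3e had 0 to 6 counts. Of 5 neutrophil markers only Csf3r was tested, at -0.63, and S100a8 had 0 to 2 counts. No gene of these lists was called in any comparison.

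The somatic cells of the testis were read in the same way, and no marker was called. In F0_5251OV vs F0_5NC all 7 Sertoli cell, 6 Leydig cell, 4 peritubular and 6 endothelial markers were below 0, with median log2 fold changes of -0.21, -0.29, -0.42 and -0.31, and all 6 germ cell markers were above 0, with a median of 0.08. The ends of these lists were Sox9 (-0.57) and Fshr (-0.05), Insl3 (-0.56) and Star (-0.10), Tagln (-0.55) and Cnn1 (-0.29), Cdh5 (-0.55) and Tek (-0.07), and Tnp1 (0.05) and Ddx4 (0.14). The members lay on both sides of the somatic markers in that comparison. H2-Ab1 (-1.07, SE 0.273), H2-Eb1 (-1.13, SE 0.351), H2-Aa (-0.74, SE 0.555) and Cd74 (-0.61, SE 0.499) lay below them all. So did Ciita, which passed the filter on low counts through control libraries only. H2-DMa (0.09, SE 0.125) and H2-DMb1 (0.22, SE 0.399) lay above them all. Differences between members and markers were not tested. In F0_5251KD vs F0_3NC the 6 endothelial and 4 peritubular markers were all above 0, as were 4 of 7 Sertoli cell and 4 of 6 Leydig cell markers, with medians of 0.33, 0.08, 0.07 and 0.23. F0_5NC replicate 1, a library with high class II levels, stood apart, with a Leydig sum of 4362 RPKM against 2111 and 2475 in the other F0_5NC libraries and a Sertoli sum of 218 against 146 and 148. The part of the somatic share in the class II values was not tested.

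Epididymal genes also varied by library. Crisp1, a secreted protein of the epididymis, had 163, 1420 and 1405 counts in F0_5NC, 1015, 692 and 3 in F0_5251OV, 5, 20 and 90 in F0_3NC and 2, 1 and 1 in F0_5251KD. The highest of these, F0_5NC replicate 2, was among the 3 libraries with high class II levels, while F0_5NC replicate 3 had low and F0_3NC replicate 2 had high class II levels. The part of epididymal tissue in the class II values was not tested. In F0_5251OV vs F0_5NC the 3 epididymal markers tested ran from -0.82 for Crisp1 to -0.31 for Adam7, with none called.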

How the data were processed

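The authors enriched messenger RNA from 12 testis libraries with oligo(dT) and aligned reads to reference genes with SOAPaligner; per the labels the build was mm10, and no step that keeps the strand is named. They deposited an estimated count per gene and library, of which 12.0% were not whole (tolerance 1e-06), and an expression value that the study's methods call RPKM; the RPKM values deposited by the authors were used only to compare levels between genes. For the counting tool, no name is given in the sources. A further 18 value columns could not be matched to a library of this series and stayed unused.

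After rounding, the counts of all 12 libraries entered a single model with 4 groups in edgeR 4.0.16 (R 4.3.3). Libraries were scaled by TMM, low genes were removed by filterByExpr and two-sided quasi-likelihood tests were run. Benjamini-Hochberg adjustment covered all 16297 genes, and the threshold was 0.05. Log2 CPM for correlations and spread used a prior count of 2. Correlations were tested by permutation. The study's methods name DEGseq, which was not run here. An exact permutation test of 3 against 3 libraries cannot go below 0.1 and was not run. Results were recomputed with DESeq2 1.42.0, with upper-quartile scaling, with no filter and a filter of 1 CPM in 3 libraries, with limma 3.58.1 on log2(RPKM + 1) and log2(RPKM + 0.1), with the replicate number as a block, from the compared groups alone and without each library in turn. The steps were tested on simulated data.

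Every member was named. Of the other lists, genes past the threshold were named, or otherwise those with the smallest and the largest log2 fold change in F0_5251OV vs F0_5NC. Genes most like the members were ranked among those with a mean of at least 1 CPM. Brd2, Dexi, the neighbours of the members in the class II region, Ifng, the Irf1 counts and single defining markers given with counts were named outside this rule, after their values were seen. 1 gene named by the rule is not reported here. The members and lists were chosen with earlier results of these data known. Reads of polymorphic class II alleles can align less well than the reference allele. A gene named lncRNA5251 was not analysed here.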

Additional observations from a re-analysis of the deposited data

How the results depend on the processing

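No alternative called any member in any comparison, except that DESeq2 called 1 (H2-Ab1) in F0_5251OV vs F0_5NC, where the adjusted p of H2-Ab1 over all alternatives ran from 0.049 to 0.987. H2-Ab1 and H2-Eb1 stayed below 0 in both treated comparisons under each alternative that could be computed for them. H2-Eb1 in F0_5251KD vs F0_3NC was nevertheless at -0.0284 without F0_3NC replicate 2. Ciita also stayed below 0, but it passed the filter on low counts through control libraries only. Its sign was thus favoured in advance. The replicate numbers do not pair the libraries, since deviations of same-numbered libraries correlated from -0.242 to 0.161. The fit with the replicate block called 0 members in each comparison and changed the sign of H2-DMb1 in F0_5251KD vs F0_3NC (0.00503) and of Cd74 in F0_3NC vs F0_5NC (-0.0247).

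With limma on log2(RPKM + 1) and log2(RPKM + 0.1), the sign changed for H2-DMb1 in F0_5251KD vs F0_3NC (0.023 and 0.0653), H2-DMa in F0_5251OV vs F0_5NC (-0.00811 and -0.0114), Cd74 in F0_3NC vs F0_5NC (-0.20 and -0.22), and the difference of effects of Ciita (0.0184 and 0.11), H2-Aa (0.26 and 0.30) and Cd74 (0.22 and 0.23). All of these had been within 1 standard error of 0, and the cause was not tested.

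Leaving out each library in turn gave a median log2 fold change of the members from -0.996 to 0.064 in F0_5251KD vs F0_3NC, where H2-DMb1 ran from -0.27 to 0.48, H2-Aa from -1.16 to 0.39 and Cd74 from -0.996 to 0.40. In F0_5251OV vs F0_5NC the median ran from -1.05 to -0.40, H2-Aa from -1.05 to -0.40, Cd74 from -0.92 to -0.37, Ciita from -2.43 to -0.98, H2-DMb1 from -0.0585 to 0.54 and H2-DMa from -0.0534 to 0.19. In F0_3NC vs F0_5NC the median ran from -1.003 to 0.27, Ciita from -2.42 to 0.68, H2-DMb1 from -0.35 to 0.49, H2-Aa from -1.18 to 0.37, Cd74 from -1.003 to 0.39 and H2-Ab1 from -0.31 to 0.13. For the difference of effects the median ran from -0.39 to 1.001, Ciita from -1.996 to 1.10, H2-DMb1 from -0.57 to 0.25, H2-DMa from -0.0899 to 0.15, H2-Aa from -0.43 to 1.12, Cd74 from -0.39 to 1.001 and H2-Ab1 from -0.0352 to 0.44. Leaving out F0_3NC replicate 2 gave the ends of most of these ranges (0.064, -1.003 and 1.001 for the 3 medians). Of the members, Ciita and H2-DMb1 had the fewest counts.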
